A study of Mus musculus with 34 samples.

Results

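Complement transcripts were followed in mouse lung 28 days after carbon nanotubes had been placed in the airways. The genes were chosen by name: the C1q chains C1qa, C1qb and C1qc, the protease C1ra, the plasma components C3, C4b and Cfb, and the anaphylatoxin receptors C3ar1 and C5ar1. Earlier results of these data were known when they were chosen, so counts over these genes describe the list and are no test of it. Each was identified by the mouse RefSeq accession of its array probe, and the probe with the highest mean lung signal stood for a gene with several probes. All 9 genes were found among the 20660 named genes of the array, and all 9 passed the filter on dim probes, which left 29316 units (named genes and unnamed accessions) for testing.

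Complement is a cascade of plasma proteases and binding proteins that marks particles, microbes and dying cells and calls in leukocytes. Its classical pathway starts when C1q binds a surface and the proteases C1r and C1s cut C4, its alternative pathway keeps itself running through factor B, and both meet where C3 is cut. The liver makes most plasma C3, whereas C1q comes mainly from macrophages and dendritic cells, and lung epithelium and macrophages also transcribe components of their own. The small fragments C3a and C5a act through G protein-coupled receptors on myeloid and epithelial cells.

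Female C57BL/6 mice, 5 to 7 weeks old, had been instilled once through the trachea with 18 or 54 µg of a carbon nanotube material known only by its code. The groups were NRCWE-043 at 18 µg (5 arrays) and 54 µg (5 arrays), NRCWE-044 at 18 µg (6 arrays) and 54 µg (5 arrays), NRCWE-045 at 18 µg (3 arrays) and 54 µg (5 arrays), and controls at 0 µg (5 arrays). The labels do not say what the controls were given. RNA came from random pieces of whole frozen lung, so fewer cells of a type and less RNA per cell cannot be told apart in any value given here. Lung RNA was always the Cy5 channel and a common reference RNA, pooled from mouse cell lines, was always Cy3. Each value is therefore the log2 ratio of a gene's lung signal to its signal in the reference RNA, and a log2 change is the difference between 2 group means of that ratio. The labels list each array as a sample of its own but do not tie it to a mouse, so the p-values measure the spread between these samples.

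From 50.8 to 68.5% of an array's probes stood well above background in the lung channel, and 6 of 6 measured lung epithelial markers did so on all 34 arrays. There were 6 slides, scanned on 6 different days, and the first principal component over all units went with slide (R² 0.781) more than with group (R² 0.144). Controls sat on 4 of the slides. Control replicate 3, labelled Control by treatment but titled as NRCWE-043 at 0 µg, was the lowest control in 8 of 9 complement genes, with a median of -0.42 from the control mean. NRCWE-043 54 µg replicate 1 was the highest array of its group in 8 of 9 genes, with a median of 0.78 above the control mean. Where leaving out either array moves a 54 µg change of one of the 9 genes from the controls by more than 1.5 times, the value without it is given in the paragraphs on that gene. Changes near 0 are left out of this rule.

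On GRCm38.p6 the 3 C1q chain genes lie side by side on mouse chromosome 4, C1qb at chr4:136880126-136886200, C1qc at chr4:136889801-136892936 and C1qa at chr4:136895916-136898844. C4b (chr17:34728139-34743902) and Cfb (chr17:34856374-34862514) lie close together in the class III region of the major histocompatibility complex, and C3 lies apart from them at chr17:57203967-57228136. C1ra is at chr6:124512621-124523440, C3ar1 at chr6:122847140-122856157 and C5ar1 at chr7:16246743-16259540. RefSeq start sites on GRCm38.p6 gave an upstream window for 6 of the 9 genes (C1qb, C1qc, C1ra, C3, C3ar1 and C5ar1). The windows of 2 neighbouring C1q chains, whose ratios varied together, and of C3, the gene with the largest change against the controls, are printed 5′ to 3′ on the gene's strand, as the 250 bases before the start used in that annotation. Capitals mark GAGGAA, the core bound by ETS factors such as PU.1, or its reverse complement TTCCTC in the C1q windows, and TTGCGNAA, a C/EBP-type motif, in the C3 window. The last few bases of the C1qc window lie inside the gene's widest annotated span.
C1qb, chr4:136886201-136886450, minus strand: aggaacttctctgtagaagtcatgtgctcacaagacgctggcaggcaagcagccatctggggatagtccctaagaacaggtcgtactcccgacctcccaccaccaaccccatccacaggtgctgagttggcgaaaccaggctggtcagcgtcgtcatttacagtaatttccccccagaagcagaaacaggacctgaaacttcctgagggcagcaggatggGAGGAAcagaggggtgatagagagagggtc
C1qc, chr4:136892915-136893164, minus strand: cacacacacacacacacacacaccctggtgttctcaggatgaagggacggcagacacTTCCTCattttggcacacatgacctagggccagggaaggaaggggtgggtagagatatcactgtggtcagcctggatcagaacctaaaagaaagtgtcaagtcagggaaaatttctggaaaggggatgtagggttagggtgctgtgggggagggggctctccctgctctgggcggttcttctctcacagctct
C3, chr17:57228137-57228386, minus strand: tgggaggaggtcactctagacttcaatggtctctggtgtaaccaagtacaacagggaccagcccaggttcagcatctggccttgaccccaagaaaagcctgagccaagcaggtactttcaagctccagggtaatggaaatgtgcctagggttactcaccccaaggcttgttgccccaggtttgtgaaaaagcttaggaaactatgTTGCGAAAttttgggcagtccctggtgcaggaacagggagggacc

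The ETS core began 30 bases before the start in C1qb, on the gene's strand, and lay 193 to 188 bases before it in C1qc, on the opposite strand. It was present in 2 of the 6 complement windows, against 23.3% of 32851 windows of the same length over 27025 genes, searched on both strands. The C/EBP-type motif lay 45 to 38 bases before the start of C3, in 1 of 6 windows, against 0.67% of all windows. An interferon-response motif (GAAA and GAAA with any 2 bases between, 2.98% of windows) and an NF-kB-type motif (GGGA, any base, TT, any base, CC, 0.98%) were in 0 of the 6, and the TATA box TATAAA (12.4%) was in 1, that of C3ar1. These matches describe the letters of the windows and nothing more.

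At 54 µg the 9 complement transcripts mostly lay above the controls, by small amounts, and no gene passed the test. The rest of the pathway, described further below, did not lean to either side. With the 3 materials pooled, 9 of 9 genes had a log2 change above 0, where 49.3% of all units did, and the median was 0.18, against a median near 0 for all units. C3 stood highest at 0.41 ± 0.18 (SE, 15 treated against 5 control arrays), then Cfb at 0.30 ± 0.17, C4b at 0.27 ± 0.17, C1qb at 0.19 ± 0.20, C1qa at 0.18 ± 0.16, C3ar1 at 0.17 ± 0.11, C1qc at 0.15 ± 0.13, C1ra at 0.14 ± 0.09 and C5ar1 at 0.06 ± 0.14. Neighbours in that order differed by less than their standard errors. Without control replicate 3 the pooled changes of Cfb, C4b, C1qb, C1qa and C1qc were 0.16, 0.17, 0.06, 0.07 and 0.04. That of C1qb was 0.11 without NRCWE-043 54 µg replicate 1. By material, 9 of 9 genes lay above the controls for NRCWE-043 (46.8% of units), 8 of 9 for NRCWE-044 (50.1%) and 8 of 9 for NRCWE-045 (50.5%), with medians of 0.21, 0.23 and 0.18. For 0 of 9 genes was a group separated from the controls, with every array above, or every array below, every control, where 0.832, 1.28 and 0.856% of units were, in either direction, for NRCWE-043, NRCWE-044 or NRCWE-045, and 0.0375% for all 54 µg arrays. These 3 comparisons share the same 5 control arrays, and the 9 genes varied together (median r 0.463), so the counts do not come from separate observations. For NRCWE-045 the count was 5 of 9, with a median of 0.04, without control replicate 3.

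At 18 µg the picture was mixed. For the 3 materials together 6 of 9 genes lay above the controls (50.3% of units), with a median of 0.05. The counts were 5 of 9 for NRCWE-043 (46.4%), 6 of 9 for NRCWE-044 (50.4%) and 7 of 9 for NRCWE-045 (50.7%), with medians of 0.04, 0.02 and 0.08. C1qa, C1qb and C1qc all lay slightly below the controls in the pooled comparison, at -0.07, -0.06 and -0.06, and C3 lay above them at 0.36 ± 0.19. The pooled count depended on how slide was handled. It was 9 of 9 with slide as a block and 4 of 9 without control replicate 3, and over 45 alternatives the median ran from -0.04 to 0.18. Within the 4 slides that held controls, C3, C4b and Cfb were above 0 in 4. C1qb, C1ra and C5ar1 were so in 3, C1qa and C1qc in 2 and C3ar1 in 1. Only NRCWE-045 had a gene separated from the controls, 1 of 9, where 5.25% of units were, against 0 of 9 for NRCWE-043 (0.484%), NRCWE-044 (0.409%) and all 18 µg arrays (0.0102%).

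Each gene was tested with limma's moderated statistic over all 29316 units, with Benjamini-Hochberg adjustment. In the 8 comparisons with the controls 0% of units passed an adjusted p of 0.05, and 0 of 9 complement genes did. At an unadjusted p under 0.05 there was 1 gene for NRCWE-045 at 18 µg (C3, 7.92% of units), 1 for NRCWE-044 at 54 µg (Cfb, 5.84%), 1 for NRCWE-045 at 54 µg (C3, 3.92%) and 1 for all 54 µg arrays (C3, 5.61%). There were 0 in the other comparisons with the controls: NRCWE-043 at 18 µg (4.35%), NRCWE-044 at 18 µg (3.13%), NRCWE-043 at 54 µg (5.63%) and all 18 µg arrays (3.91%). With slide as a block the pooled 54 µg median over the 9 genes was 0.30, against 0.18 without it, and their unadjusted p was under 0.05 for 7 of 9, where 10.4% of all units were in that model and 0% passed the adjusted test. The smallest adjusted p among those was 0.223, for C1qc, so 0 genes passed there either.

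The high 54 µg values depended in part on the 2 arrays named above. Without control replicate 3 the pooled 54 µg count stayed at 9 of 9 with a median of 0.11, but for NRCWE-045 at 54 µg it was 5 of 9 with a median of 0.04. Without NRCWE-043 54 µg replicate 1 that group had 8 of 9 genes above the controls and a median of 0.09. With both arrays left out, a setting chosen after the values were seen, the pooled count was 8 of 9 with a median of 0.08, and NRCWE-043 at 54 µg had 5 of 9 with a median of 0.01.

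**Figure D1:**
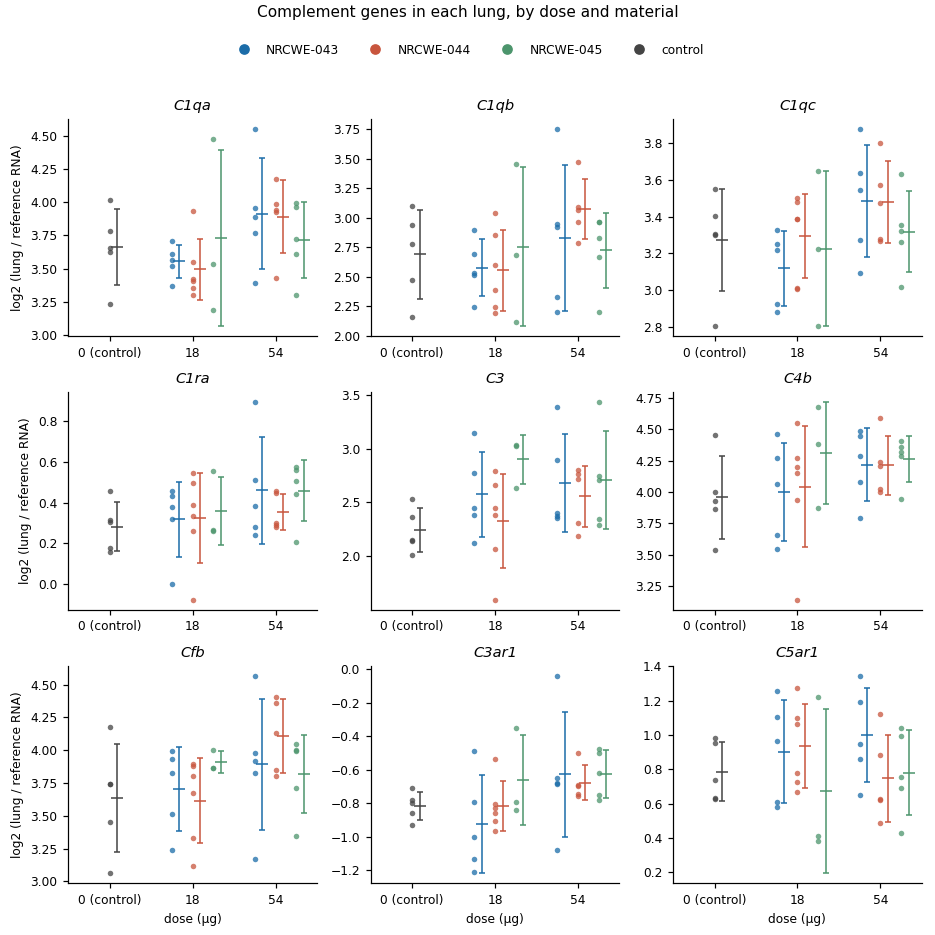
Log2 ratio of lung to reference RNA (vertical axis) by instilled dose in µg (horizontal axis) for the 9 complement genes, 1 panel each; every point is an array, coloured by material, and bars give mean ± SD of a group. At 54 µg 8 of 15 arrays for C3 and 10 of 15 for C3ar1 lie above every control, whereas for C5ar1 5 lie above and 3 below every control.

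C3, the component on which all activation pathways converge, was above the control mean in 14 of 15 arrays at 54 µg. The ratios were 3.38, 2.37, 2.40, 2.89 and 2.35 in NRCWE-043 lungs, 2.72, 2.31, 2.19, 2.80 and 2.76 in NRCWE-044 lungs and 2.75, 2.29, 2.35, 3.43 and 2.71 in NRCWE-045 lungs at 54 µg, against 2.53, 2.36, 2.01, 2.15 and 2.14 in controls. Of the 54 µg arrays, 8 of 15 exceeded the highest control, spread over all 3 materials, and the groups overlapped. The pooled change of 0.41 (95% CI 0.03 to 0.78) is a fold of 1.33, with an adjusted p of 0.843 in limma. Within the 4 slides that held controls the difference was above 0 in 4 of 4, between 0.16 and 0.59. Every alternative tried kept the pooled C3 value above 0, the lowest being 0.29 without both of the arrays named above.

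NRCWE-045 at 18 µg gave the largest C3 change of any group, on 3 arrays. They stood at 3.03, 2.64 and 3.03, against the 5 control ratios already given, so that every NRCWE-045 18 µg array lay above every control. C3 alone among the 9 genes was separated in that comparison, where 3.18% of units lay above every control in this way. Its log2 change was 0.66 ± 0.26 (95% CI 0.13 to 1.19, fold 1.58), with an unadjusted p of 0.0158 and an adjusted p of 0.463 in limma. C3 at 18 µg was 2.77, 2.38, 3.14, 2.45 and 2.13 in NRCWE-043 lungs, and 1.59, 2.42 and 2.79 as lowest, median and highest in NRCWE-044 lungs, both overlapping the controls.

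Markers of another tissue moved in the same NRCWE-045 18 µg arrays. The liver list had 12 of 12 genes above the controls (50.7% of units), with a median of 1.63. Its score (the mean log2 difference from the control mean) was 0.60, 3.78 and 0.34 in the 3 arrays, against -0.07 to 0.10 in controls. Apoh, Apoa1, Ttr and Fgb of this list stood well above background on only 4, 5, 8 and 11 of 34 arrays, the others on at least 21. Genes this dim can pass the filter through the few arrays where they are high, so the count of 12 is no test. C3, a liver product too, was 3.03, 2.64 and 3.03 in the same 3 arrays in the same order, and with liver and fat scores as covariates its change was 0.71. The part of liver RNA in the C3 value was not tested. Across all 34 arrays C3 and the liver score had a Pearson r of 0.159 (adjusted permutation p 0.488) and a Spearman rho of 0.360 (adjusted permutation p 0.123).

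The single-material C3 values at 54 µg each leaned on 1 array in 2 of the 3 materials. The change was 0.44 for NRCWE-043 and 0.27 without replicate 1, 0.47 for NRCWE-045 and 0.28 without replicate 4, and 0.32 for NRCWE-044. At 18 µg the NRCWE-043 change of 0.34 was 0.19 without replicate 3. A further C3 probe on the array gave 0.40 with NRCWE-043, 0.23 with NRCWE-044 and 0.39 with NRCWE-045 at 54 µg, and 0.47 with NRCWE-045 at 18 µg, in the same direction as the probe used.

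Cfb encodes factor B, the protease of the alternative pathway's C3 convertase, and its change was largest with NRCWE-044 at 54 µg. In NRCWE-044 lungs the ratio was 4.13, 3.80, 4.36, 3.85 and 4.41, against 4.18, 3.46, 3.06, 3.74 and 3.74 in controls. The means were 4.11 ± 0.28 in NRCWE-044 lungs and 3.64 ± 0.41 in controls (SD, n = 5 each), and 2 of the 5 treated arrays exceeded the highest control, control replicate 1. The difference was 0.47 ± 0.21 (95% CI 0.05 to 0.90, fold 1.39), with an unadjusted p of 0.0303 and an adjusted p of 0.799 in limma. Cfb was 4.57, 3.17, 3.98, 3.83 and 3.92 in NRCWE-043 lungs and 4.00, 3.34, 4.00, 3.71 and 4.05 in NRCWE-045 lungs at 54 µg. Both groups overlapped the controls, and their changes were 0.26 and 0.18. Without control replicate 3 these were 0.11 and 0.04, and without control replicate 1 they were 0.39 and 0.32. Leaving out NRCWE-043 replicate 1 gave 0.09 and leaving out its replicate 2 gave 0.44, and without NRCWE-045 replicate 2 the change was 0.30.

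Within slides the pooled Cfb difference at 54 µg was above 0 in 4 of 4, between 0.37 and 0.49. Without control replicate 3, the lowest control for this gene at 3.06, it was 0.16. At 18 µg every Cfb ratio lay within the control range, with changes of 0.07 with NRCWE-043, -0.02 with NRCWE-044 and 0.27 with NRCWE-045, the last 0.13 without control replicate 3.

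C4b encodes complement C4, the substrate of the C1 proteases and a subunit of the classical convertase. Its near-identical copy C4a was not on the array under its own name. Whether the C4b probe also picks up C4a transcripts was not tested, so the C4b values are uncertain as those of a single gene. Ratios at 54 µg were 4.49, 3.79, 4.45, 4.29 and 4.08 in NRCWE-043 lungs, 4.02, 4.00, 4.24, 4.21 and 4.59 in NRCWE-044 lungs and 4.36, 3.94, 4.29, 4.32 and 4.40 in NRCWE-045 lungs, against 4.45, 4.00, 3.53, 3.87 and 3.93 in controls. Of the 15 arrays 13 lay above the control mean but only 2 above the highest control. The changes were 0.26, 0.26 and 0.31, each with an SE of 0.21. Without control replicate 3 they were 0.16, 0.15 and 0.20, and the pooled change was 0.17, while that of NRCWE-044 was 0.16 without its own replicate 5. In the 4 slides with controls the pooled 54 µg difference ranged from 0.06 to 0.57.

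C1ra, the mouse C1r protease that cuts C1s inside the C1 complex, varied least among arrays of a group (residual SD 0.18, with 47.9% of units more variable). Its 54 µg ratios were 0.24 to 0.89 in NRCWE-043 lungs, 0.28 to 0.46 in NRCWE-044 lungs and 0.21 to 0.57 in NRCWE-045 lungs, against 0.16 to 0.46 in controls. The changes were 0.18, 0.07 and 0.18, each with an SE of 0.11, and all groups overlapped the controls. The NRCWE-043 change was 0.07 without replicate 1. A further C1ra probe gave 0.04, 0.02 and 0.08 in the same comparisons.

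**Figure D2:**
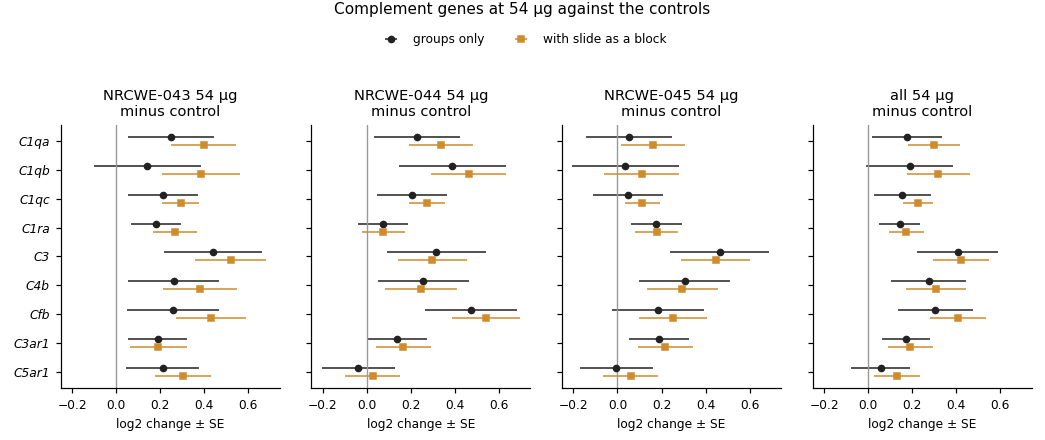
Log2 change against the controls at 54 µg (horizontal axes) for the 9 complement genes, for each material and for all 54 µg arrays; points are differences between group means and bars are standard errors, with black circles from the model of groups alone and orange squares from the model with slide as a block. Most points lie to the right of 0, and for C3 in all 54 µg arrays the model of groups gives 0.41 and that with slide 0.42.

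The C1q chains, which assemble into the recognition molecule of the classical pathway, lay near the controls at 18 µg and slightly above them at 54 µg. C1qb at 54 µg was 3.75, 2.20, 2.95, 2.92 and 2.33 in NRCWE-043 lungs, 3.07, 2.97, 3.09, 2.78 and 3.48 in NRCWE-044 lungs and 2.67, 2.20, 2.96, 2.83 and 2.96 in NRCWE-045 lungs, against 2.94, 2.47, 2.16, 3.10 and 2.78 in controls. NRCWE-043 lungs ran from near the lowest control to well above the highest, while NRCWE-044 lungs lay closest together and 1 of them exceeded every control. The C1qb changes were 0.14, 0.39 and 0.04, each with an SE of 0.24.

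C1qa at 54 µg was 4.55, 3.39, 3.96, 3.77 and 3.89 in NRCWE-043 lungs, 3.93, 3.94, 3.99, 3.43 and 4.17 in NRCWE-044 lungs and 3.99, 3.30, 3.96, 3.61 and 3.72 in NRCWE-045 lungs, against 3.78, 3.63, 3.23, 4.02 and 3.66 in controls. C1qc was 3.88, 3.10, 3.55, 3.27 and 3.63, then 3.57, 3.27, 3.47, 3.28 and 3.80, then 3.32, 3.02, 3.26, 3.36 and 3.63 in NRCWE-043, NRCWE-044 and NRCWE-045 lungs, against 3.55, 3.30, 2.81, 3.31 and 3.40 in controls. All of these groups overlapped the controls, and 2 of 15 arrays for C1qa and 5 of 15 for C1qc exceeded the highest control. The changes were 0.25, 0.23 and 0.05 for C1qa, and 0.21, 0.21 and 0.05 for C1qc.

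These C1q values rested in part on control replicate 3, which was the lowest control for all 3 chains. Without it the pooled 54 µg changes of C1qa, C1qb and C1qc were 0.07, 0.06 and 0.04, and with NRCWE-043 54 µg replicate 1 left out as well they were 0.02, -0.02 and 0.01. Leaving out control replicate 4 gave 0.27 for C1qa and 0.29 for C1qb, and leaving out NRCWE-043 54 µg replicate 1 alone gave 0.11 for C1qb. In NRCWE-043 lungs the changes were 0.09, -0.09 and 0.12 without replicate 1 and 0.14, 0.01 and 0.10 without control replicate 3. In NRCWE-044 lungs they were 0.12, 0.26 and 0.09 without control replicate 3. Within slides C1qc at 54 µg lay above the controls in 4 of 4 slides, by 0.12 to 0.32, and C1qa and C1qb did so in 3 of 4.

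Both receptors had dim probes. C3ar1, the receptor for C3a, had a median lung signal of 181 over a local background of 74, and stood well above background on 32 of 34. Its 54 µg ratios were -0.04, -0.65, -1.08, -0.68 and -0.68 in NRCWE-043 lungs, -0.70, -0.76, -0.69, -0.74 and -0.50 in NRCWE-044 lungs and -0.75, -0.62, -0.78, -0.50 and -0.47 in NRCWE-045 lungs, against -0.71, -0.86, -0.93, -0.78 and -0.80 in controls. The controls were close together (SD 0.08), 10 of 15 treated arrays exceeded all of them and 1 lay below all of them. The changes were 0.19, 0.14 and 0.19, each with an SE of 0.13. That of NRCWE-043 was 0.04 without replicate 1 and 0.30 without replicate 3.

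C5ar1, the receptor for C5a, had a median lung signal of 219 over a background of 73, and its differences lay on both sides of 0. At 54 µg its ratio was 1.19, 0.65, 1.35, 0.86 and 0.95 in NRCWE-043 lungs, 0.88, 0.63, 1.12, 0.49 and 0.62 in NRCWE-044 lungs and 0.99, 0.43, 1.04, 0.75 and 0.69 in NRCWE-045 lungs, against 0.74, 0.63, 0.63, 0.95 and 0.98 in controls. Of these 15 arrays 5 lay above every control and 3 below every control. The changes were 0.21, -0.04 and -0.01, each with an SE of 0.17, and that of NRCWE-043 was 0.13 without replicate 3.

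Set directly against 18 µg, the 54 µg lungs of all materials had higher ratios in 9 of 9 genes (48.8% of units), with a median of 0.16 and 0 genes called (0% of units). C1qc differed by 0.21 ± 0.10 (unadjusted p 0.0324) and C1qa by 0.25 ± 0.12 (unadjusted p 0.0445), 2 of 9 genes where 3.71% of units reached that level, and limma's adjusted p was 1.00 for both. Both differences were above 0 within 6 of 6 slides, between 0.11 and 0.54 for C1qa and between 0.14 and 0.33 for C1qc.

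By material, 54 µg exceeded 18 µg in 9 of 9 genes for NRCWE-043 (50.8% of units, median 0.22), in 8 of 9 for NRCWE-044 (49.7%, median 0.18) and in 4 of 9 for NRCWE-045 (48.8%, median -0.01). These values moved with the processing and with single arrays. Over 45 alternatives the NRCWE-043 count was 8 or 9, with a median of 0.05 to 0.33. The NRCWE-044 count was 6 to 8 (median 0.06 to 0.27) and the NRCWE-045 count 1 to 8 (median -0.12 to 0.19). At an unadjusted p under 0.05 there were 3 genes for NRCWE-044 (5.24% of units): Cfb at 0.49 ± 0.20, C1qb at 0.52 ± 0.23 and C1qa at 0.40 ± 0.19, with limma's adjusted p from 0.926 to 0.942. There were 2 for NRCWE-043 (3.13%), C1qc at 0.37 ± 0.16 and C3ar1 at 0.30 ± 0.13, and 0 for NRCWE-045 (2.36%). Within slides the NRCWE-043 difference was above 0 in 4 of 4 for C1qc but in only 2 of 4 for C3ar1. Whether the dose difference itself differs between materials was not tested.

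Between materials at the same dose 0 of 9 complement genes passed the test in all 6 comparisons. The share of units called was 0.0102% for NRCWE-043 minus NRCWE-044, 0.43% for NRCWE-043 minus NRCWE-045 and 0% for NRCWE-044 minus NRCWE-045 at 18 µg, and 0%, 0.00341% and 0% for the same pairs at 54 µg. C3 at 18 µg was lower with NRCWE-044 than with NRCWE-045, by -0.58 ± 0.25 (95% CI -1.09 to -0.06, limma's unadjusted p 0.0285 and adjusted p 0.720). It was the 1 gene at that level in this comparison, where 6.16% of units were, and there were 0 in the other 5 (5.56 and 10.7% of units at 18 µg for NRCWE-043 minus NRCWE-044 and NRCWE-043 minus NRCWE-045, and 4.79, 5.1 and 3.6% for the 3 pairs at 54 µg). The interval reaches almost to 0, and the 6 NRCWE-044 arrays (1.59 to 2.79) overlapped the 3 NRCWE-045 arrays (2.64 to 3.03).

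The 9 genes varied together from lung to lung. Of their 36 pairs, 25 had a Pearson correlation over the 34 arrays with an adjusted permutation p under 0.05, all of them positive, and 16 did so by Spearman's rho. The median r was 0.463 and the range -0.03 to 0.839, and after group and slide means were removed the median was 0.377, with 34 of 36 above 0. Within single slides of 8 arrays the median was 0.663 on slide 1 and 0.179 on slide 2. Arrays share slide, group and normalization, and a gene's R² with slide ran from 0.174 (C3ar1) to 0.660 (C1qc) and with group from 0.141 (C1ra) to 0.263 (C3). The share of pairs called among other genes is not given here, so the count of 25 is not shown to be particular to complement.

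Most of the highest correlations lay among the C1q chains, among C3, C4b and Cfb, and between Cfb and C1q. Among the C1q chains r was 0.839 for C1qa with C1qb, 0.723 for C1qa with C1qc and 0.660 for C1qb with C1qc, and after removal of group and slide means it was 0.82, 0.62 and 0.73. Among C3, C4b and Cfb r was 0.761 for C4b with Cfb, 0.739 for C3 with C4b and 0.579 for C3 with Cfb, and 0.74, 0.61 and 0.70 after removal. Spearman's rho was 0.80, 0.65 and 0.59 for the C1q pairs and 0.70, 0.74 and 0.54 for the others, in the same order. With the 2 arrays farthest from the median left out, r lay between 0.54 and 0.76 for the C1q pairs and between 0.58 and 0.77 for the others. These 6 pairs were all among the 25. Cfb also had r of 0.736 with C1qa, 0.759 with C1qb and 0.628 with C1qc, which were 0.45, 0.38 and 0.33 after removal. C1ra with C4b (r 0.670, and 0.50 after removal) and C1qc with C3ar1 (r 0.617, and 0.49 after removal) lay in the same range. The 2 receptors, C3ar1 and C5ar1, had an r of -0.03.

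**Figure D3:**
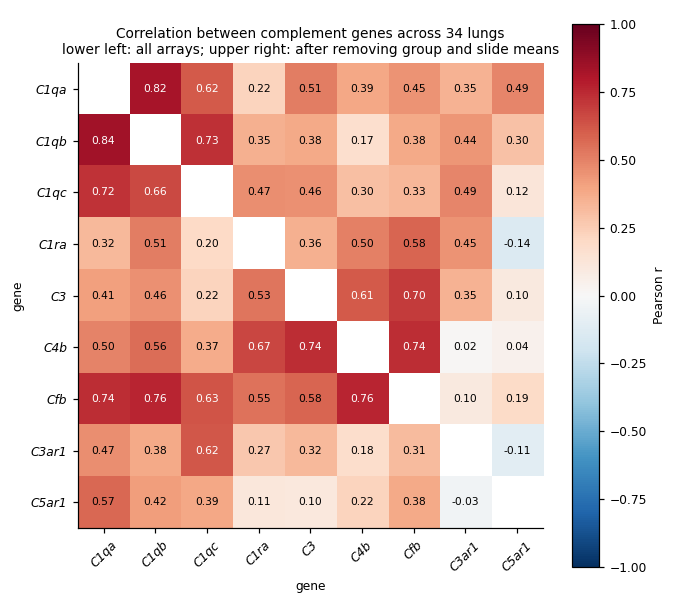
Pearson correlation of the log2 ratios of each pair of the 9 complement genes over 34 arrays; rows and columns are genes and colour runs from negative to positive r, with all arrays in the lower left and the values left after removing group and slide means in the upper right. The C1q chains form 1 bright corner (0.660 to 0.839) and C3, C4b and Cfb another (0.579 to 0.761), while C3ar1 with C5ar1 lies near 0 (-0.03).

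C1q varied with the markers of monocytes and interstitial macrophages across the lungs. The marker score, a mean over 11 measured genes such as Apoe, Lyve1 and Tmem119, gave r = 0.843 with C1qa, 0.746 with C1qb and 0.80 with C1qc (rho 0.821, 0.713 and 0.742, adjusted permutation p 0.00038 for each, over 153 such relations). Without the 2 farthest arrays r was 0.784, 0.642 and 0.730, and after removal of group and slide means 0.742, 0.807 and 0.532. Within slide 1 it was 0.858, 0.845 and 0.799, and within slide 2 it was 0.921, 0.767 and 0.857, over 8 arrays each. Of the 153 relations between a complement gene and a marker list, 42 were called by r and 29 by rho. The C1q values for the other lists are not given here, so the relation is not shown to be particular to these cells.

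At 54 µg the score was 0.66, -0.10, 0.13, 0.02 and 0.26 in NRCWE-043 lungs, 0.20, 0.11, 0.23, 0.15 and 0.26 in NRCWE-044 lungs and 0.34, -0.12, 0.28, 0.11 and 0.12 in NRCWE-045 lungs, against 0.21, -0.11, -0.30, 0.24 and -0.04 in controls. Of the list, 8 of 11 genes lay above the controls (49.3% of units), with a median of 0.17, and 0 were called (0% of units). All 11 were well above background on all 34 arrays. The lowest control is replicate 3 and the highest treated array NRCWE-043 54 µg replicate 1, the same arrays as for the C1q chains. The part of these cells in the C1q values was not tested.

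**Figure D4:**
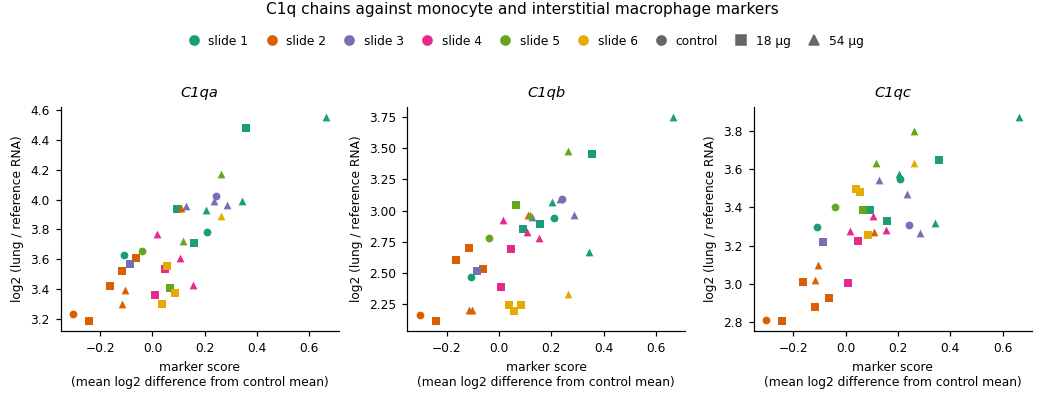
Log2 ratio of C1qa, C1qb and C1qc (vertical axes) against the monocyte and interstitial macrophage marker score (horizontal axis, mean log2 difference from the control mean) over 34 arrays; colour marks the slide and shape the dose. Points climb together in each panel, with r = 0.843, 0.746 and 0.80, and arrays of 1 slide often sit near each other.

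Among the other genes, Cfb also had a high correlation with that score (r = 0.725, rho 0.745, and 0.523 after removal of group and slide means), and C3 had a lower one (r = 0.401, adjusted permutation p 0.066). C3 varied with the acute phase list, which holds Hp, Lcn2 and Cp among 9 genes, with r = 0.676 (rho 0.461, 0.49 without the 2 farthest arrays, 0.686 after removal, adjusted permutation p 0.00066). That list had 8 of 9 genes above the controls at 54 µg, with a median of 0.23. Some other marker lists are set here against the same share of units. At 54 µg, B and plasma cells had 8 of 8 above the controls (median 0.53) and alveolar macrophages 6 of 12 (median -0.01). Neutrophils had 9 of 10 (median 0.10), the liver list 9 of 12 (median 0.12) and endothelium 0 of 8 (median -0.33). The liver list holds the dim genes named above, so its count and that of the acute phase list are no test. The remaining lists are not given here.

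The genes with the pattern most like each of the 9 were taken as those with the 2 highest Pearson r over 34 arrays among 17093 other named genes. For C1qa these were P2ry13 (r = 0.793) and Siglec1 (r = 0.787), for C1qb Zmynd15 (0.830) and Pla2g4f (0.777), and for C3 Ptgs1 (0.826) and Serp1 (0.785). For C4b they were Myo9a (0.740) and C2 (0.721), itself a complement gene that encodes the protease of the classical convertase, and for Cfb Wfdc21 (0.842) and Tbxas1 (0.777). After removal of group and slide means these values were 0.62 and 0.71 for C1qa, 0.79 and 0.71 for C1qb, 0.83 and 0.50 for C3, 0.47 and 0.68 for C4b, and 0.71 and 0.68 for Cfb. For C1qc the 2 genes, Zmynd8 and Grk3, had r of 0.78 and only 0.05 and 0.14 after removal. C5ar1 was nearest to Chmp4c (0.75) and Siglecf (0.74), C3ar1 to Fau (0.63) and Lcn2 (0.62), and C1ra to Ccl12 (0.66) and Aif1 (0.65).

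In the rest of the pathway as many genes lay above the controls as below them at 54 µg. Of 45 further complement genes listed, 36 were tested. Of these, 18 lay above the controls (49.3% of units), with a median of 0.00 and 0 called (0% of units). By role, 6 of 7 receptors lay above the controls (median 0.24), 6 of 11 classical and lectin pathway genes (0.04), 3 of 12 regulators (-0.04), 2 of 4 terminal components (0.03) and 1 of 2 alternative pathway genes. At an unadjusted p under 0.05 there were 4 of the 36, 3 above and 1 below the controls, where 5.61% of units reached that level.

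The receptors with the largest values were integrin chains of the leukocyte complement receptors, Itgax and Itgb2, and Cr2, the complement receptor of B cells. Itgax at 54 µg was 3.65, 3.33, 3.27, 3.43 and 3.43 in NRCWE-043 lungs, 3.22, 3.39, 3.85, 3.93 and 3.76 in NRCWE-044 lungs and 3.49, 3.56, 3.61, 3.50 and 3.42 in NRCWE-045 lungs, against 3.41, 2.96, 2.74, 3.19 and 3.40 in controls. Every NRCWE-045 54 µg array lay above every control, as in 0.416% of units, and 11 of the 15 did in all. The pooled change was 0.38 ± 0.12 for Itgax (unadjusted p 0.0037, adjusted p 0.614), 0.45 ± 0.15 for Itgb2 (unadjusted p 0.0069, adjusted p 0.705) and 0.46 ± 0.18 for Cr2 (unadjusted p 0.0177, adjusted p 0.785), all in limma. Cfp, which encodes properdin, the stabiliser of the alternative convertase, lay at 0.30 ± 0.15, Cd93 lay below the controls at -0.22 ± 0.10, and the regulator Susd4 did so for NRCWE-043 at 54 µg, at -0.32 ± 0.13. The B and plasma cell list given above lay above the controls in the same comparison as Cr2, and its part in the Cr2 value was not tested.

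At 18 µg of NRCWE-045, 24 of 36 lay above the controls (50.7% of units), 7 of 36 were at an unadjusted p under 0.05 (7.92% of units), 6 above and 1 below the controls, and single arrays set several of the values. Mbl2, a mannose-binding lectin made by liver, was 0.77, 5.10 and 0.42 in the 3 arrays, against 0.28, 0.06, 0.08, 0.15 and 0.03 in controls, a change of 1.97 ± 0.54 that was 0.47 without replicate 2. Vsig4, a C3b receptor of tissue macrophages, was 3.26, 1.05 and 0.43, with a change of 1.22 ± 0.33 that was 0.38 without replicate 1. Replicate 2 is the array with the liver score of 3.78. Without that replicate C8g, a terminal component, was 0.12 and the lectin pathway protease Masp2 was -0.09, against 1.11 ± 0.35 and 0.65 ± 0.29 with it, and the ficolin Fcna was 1.49 ± 0.44, or 0.49 without replicate 1. Mbl2 stood well above background on only 7 of 34 arrays and Masp2 on 10, against 24 for Vsig4 and 26 for Fcna. Most Mbl2 and Masp2 ratios thus lie near the floor, and the size of their changes is uncertain. Genes this dim can pass the filter through the few arrays where they are high, so the counts of 24 and 7 of 36 are no test. Itgam, the alpha chain of complement receptor 3, was 2.92, 2.46 and 2.90 and lay above every control in all 3 arrays, as 3.18% of units did. Its change was 0.76 ± 0.22 (adjusted p 0.276 in limma).

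**Figure D5:**
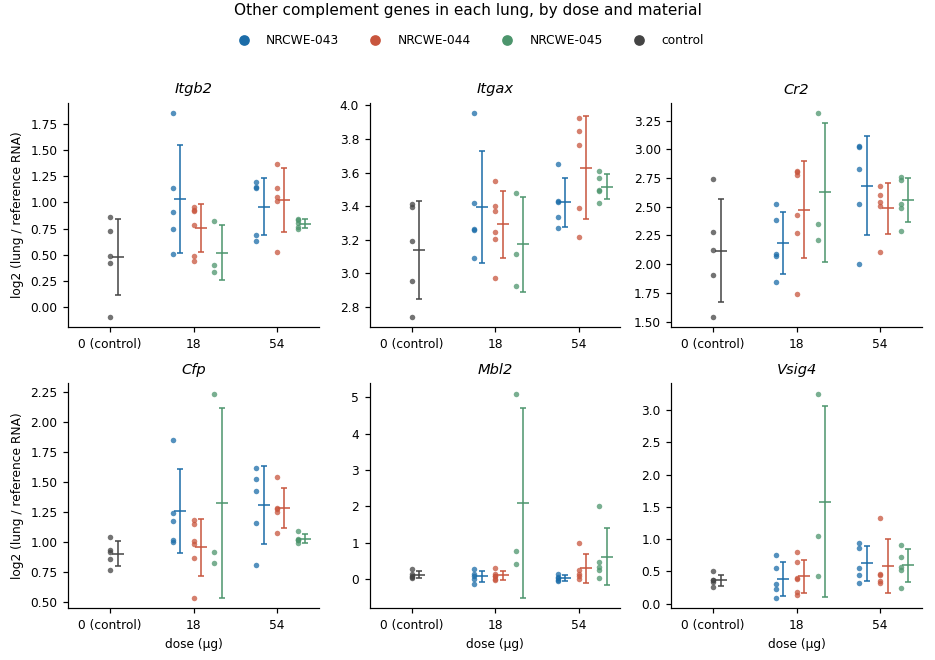
Log2 ratio of lung to reference RNA (vertical axes) by dose in µg (horizontal axes) for Itgb2, Itgax, Cr2, Cfp, Mbl2 and Vsig4; points are arrays coloured by material and bars give mean ± SD. Itgax at 54 µg lies above every control in 11 of 15 arrays, and 1 NRCWE-045 array at 18 µg stands far above the rest for Mbl2, at 5.10.

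The precision of these values is limited by 5 control arrays and by 3 to 6 arrays per treated group. At 54 µg the SE of a complement gene's change in 1 material ran from 0.11 to 0.24 on the log2 scale.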

How the data were processed

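Spot intensities of lung RNA (Cy5) and reference RNA (Cy3) came from 34 arrays. Per the file headers, the authors extracted them with Agilent Feature Extraction 11.0.1.1 as median pixel intensity of spot and background, a processed intensity, flags of 0 or 1 and an unused log10 ratio. The deposited series table holds log2 Cy5 over Cy3 ratios with array medians of -0.04 to -0.00, made by steps that no source used here gives. The plan named mean signals, but the files hold medians, which were used.

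Background was subtracted by normexp (offset 50), ratios were normalized by loess within arrays with control and irregular spots at weight 0, and repeated spots were averaged, in R 4.3.3 with limma 3.58.1 and statmod 1.5.0 (figures: matplotlib 3.10.9). Of 55681 probes, 27235 had a symbol through RefSeq. The filter kept units that stood clear of background, by the scanner's flag for Cy5, on 3 or more arrays. A model with 7 group means was fitted by limma with empirical Bayes over 29316 units, and 18 comparisons were adjusted by Benjamini-Hochberg at 0.05. Correlations were tested with 100000 permutations. For pairs of the complement genes these ran over all arrays without regard to slide or group. Their p-values therefore do not separate shared slide or group effects from other joint variation. The fit was tested on simulated data. No spot was saturated (0) and 0.398 to 0.631% were irregular.

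The 9 genes and all lists were chosen with earlier results of these data known. Groups came from the treatment labels; the labels state 5 arrays per group, and the deposit order only numbers replicates. The other complement genes named are those under an unadjusted p of 0.05 in a comparison with the controls, and the genes of like pattern the 2 with the highest r. Alternatives covered background, normalization, filter, slide, array weights, covariates, probes and each array left out. Protein and probe sequences, and the upstream windows of C1qa, C4b and Cfb, were not used.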

Additional observations from a re-analysis of the deposited data

Results flagged for a closer look

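Of 54 sets of arrays (9 genes in 6 groups of 5 or 6), 2 held an array far from its group by Dixon's ratio, which chance alone does in about 1 set of 20. C4b was lowest in NRCWE-045 54 µg replicate 2, at a log2 ratio of 3.94, with the nearest array of the group at 4.29. C3ar1 was highest in NRCWE-044 54 µg replicate 5, at -0.50, with the nearest array at -0.69.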

How the results depend on the processing

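Under every alternative 0 complement genes passed an adjusted p of 0.05 in limma, and the smallest adjusted p was 0.177, for C1qc in NRCWE-043 at 54 µg with slide as a block. The count of complement genes above the controls at 54 µg, all materials together, was 8 or 9 over 45 alternatives, with a median of 0.11 to 0.30. At 18 µg it was 4 to 9, and both extremes came from the controls and slides: leaving out control replicate 3 gave 4, and slide as a block gave 9. No result reversed a call, and the cause of each change below was not tested.

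Counts of called units moved as follows, none of them a complement gene of the 9. For NRCWE-043 minus NRCWE-045 at 18 µg, 126 became 206 without background subtraction, 12 with median centring, 7 with scaling, 3 with processed signals, 21 with slide as a fixed block, 397 with slide as a random block, and 0 with array weights or liver and fat covariates. For NRCWE-043 minus NRCWE-044 at 18 µg, 3 became 0 with median centring or slide fixed, 5 with scaling, 1 with processed signals or the series table, 11 with slide random, 6 with array weights, and 1 without both arrays named in the report. At 54 µg that pair went to 1 with scaling or slide fixed, 22 with slide random and 2 with array weights, against 0. NRCWE-043 minus NRCWE-045 at 54 µg, 1 as reported, had 0 with processed signals, with covariates or without both arrays, 4 with slide random and 7 with array weights. NRCWE-044 minus NRCWE-045 at 54 µg, 0 as reported, had 1 with processed signals or covariates, 6 with slide random and 5 with array weights. Against the controls, where all were 0, NRCWE-044 at 54 µg had 1 with slide fixed, 8 with slide random, 31 with array weights and 2 with covariates. NRCWE-045 at 54 µg had 1 with slide fixed, NRCWE-043 at 54 µg had 1 with array weights, and all 54 µg arrays had 4 with slide random and 3 with array weights. NRCWE-044 at 54 minus 18 µg had 1 with array weights and 2 without both arrays.

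Leaving out each array in turn gave 0 to 428 units for NRCWE-043 minus NRCWE-045 and 0 to 34 for NRCWE-043 minus NRCWE-044 at 18 µg, 0 to 133 for NRCWE-044 minus NRCWE-045 at 18 µg, and 0 to 3 for both NRCWE-043 pairs at 54 µg. Against the controls it gave 0 to 110 for NRCWE-045 at 18 µg, 0 to 13 for NRCWE-044, 0 to 3 for NRCWE-043 and 0 to 6 for all arrays at 54 µg. Between doses it gave 0 to 21 for NRCWE-045 and 0 to 3 for NRCWE-044. No paired analysis was possible because the labels number no replicates across groups; slide was used as a block in its place. C3ar1 and C5ar1 were dim in lung, and the reference channel was well above background on only 25 of 34 arrays for C1qa and 23 for C5ar1, which limits small differences there.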
